A study of Azumapecten farreri with 9 samples.

Results

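The genes described here encode the digestive machinery of the lysosome in circulating immune cells (hemocytes) of the Zhikong scallop, Azumapecten farreri. They were taken from the deposited gene table by name: a gene belongs if its description mentions a cathepsin, an arylsulfatase, a V-type proton ATPase, the lysosome, a hexosaminidase, a Niemann-Pick protein, epididymal secretory protein E1, a saposin, a glucosylceramidase, legumain or an alpha-L-fucosidase. Of 21617 genes, 95 matched, with 0 matches for saposin. A name match is not proof of place in the cell: 1 match is a non-lysosomal glucosylceramidase, 2 are hexosaminidase D, and 5 are subunits of the BLOC-1 complex, which helps build lysosome-related organelles. By role the 95 fall into 10 cysteine cathepsins and legumain, 1 cathepsin D, 19 sulfatases, 22 glycosidases, 7 lipid-handling genes, 13 proton pump subunits and 23 lysosomal membrane and other genes. No protein or transcript sequence was used here, so members are told apart by gene identifier, written as scaffold and gene number.

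Lysosomes are acidic compartments in which enzymes break down proteins, sugar chains, sulfated polysaccharides and lipids, and phagocytes use them to digest what they have engulfed. The V-type proton ATPase pumps protons into the compartment: its peripheral V1 sector hydrolyses ATP and its membrane Vo sector carries the protons. Cathepsins are lysosomal proteases, arylsulfatases remove sulfate groups, and NPC1 and NPC2 pass cholesterol out of the compartment in vertebrates.

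The 9 libraries form 3 groups of 3, all of hemocyte RNA. Scallops of the PBS group received the saline vehicle, and the other 2 groups received exosomes, small membrane vesicles released by cells. For these 6 libraries the labels conflict: the libraries titled LPS_T carry a group label of normal exosomes, and the libraries titled NOR_T one of exosomes from stimulation with LPS (lipopolysaccharide, a component of bacterial walls). Groups are therefore called by their titles, and no result below is assigned to LPS stimulation. Dose, time after injection, and whether a library came from 1 animal or from a pool were not found in the labels, so p-values here cover variation between libraries only, and that variation may be technical. In bulk RNA, fewer cells of one type and less RNA per cell cannot be told apart.

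Estimated counts summed to between 19894628 (PBS 1) and 45831950 (PBS 3) per library, or about 5333680 to 12420583 sequenced fragments. In PBS 1, 17.8% of the counts came from 2 genes on scaffold38697, which took between 0.0318% and 0.0979% of every other library. Results that rest on this library are therefore given with and without it. Levels are CPM, counts divided by library total and scaled between libraries by TMM, or, where genes are compared with each other, FPKM, which also divides by gene length and carries no TMM scaling. Changes are log2 fold changes from edgeR's quasi-likelihood test with a standard error (SE), and "rose" or "fell" is written only where the Benjamini-Hochberg adjusted p over all 11678 tested genes was under 0.05.

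Of the 95 members, 67 were tested because 3 or more libraries had an FPKM of 1 or higher, and 28 were not. The untested members never exceeded an FPKM of 1.82 in any library. Low members were concentrated in a few classes: 9 of 19 sulfatases and 3 of 10 beta-hexosaminidases were tested, against all 13 pump subunits and all 8 alpha-L-fucosidases. Among the tested, 1 sulfatase passed the filter through the PBS group alone, so its difference from that group was built in by the filter.

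The most abundant member by far was lysosomal alpha-mannosidase-like (evm.TU.scaffold881.27), which trims mannose from glycoproteins, with a mean FPKM of 1570.1 over the 9 libraries, which ranked 68 among all genes. Cathepsin L-a (evm.TU.scaffold47619.27) followed at an FPKM of 396. Next came the 16 kDa proteolipid of the pump (evm.TU.scaffold58059.11) at 383 FPKM and the lysosomal-associated transmembrane protein 4A-like gene (evm.TU.scaffold54371.27) at 256 FPKM. Against these, the tested members had a median FPKM of 10.7, and all tested genes 5.02. Pump subunits had the highest class median, 51.5 FPKM, and among classes with more than 1 tested member the lowest were the sulfatases at 3.93 FPKM and the lipid-handling genes at 2.50 FPKM. Depth therefore limits what can be seen in these last 2 classes.

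**Figure D1:**
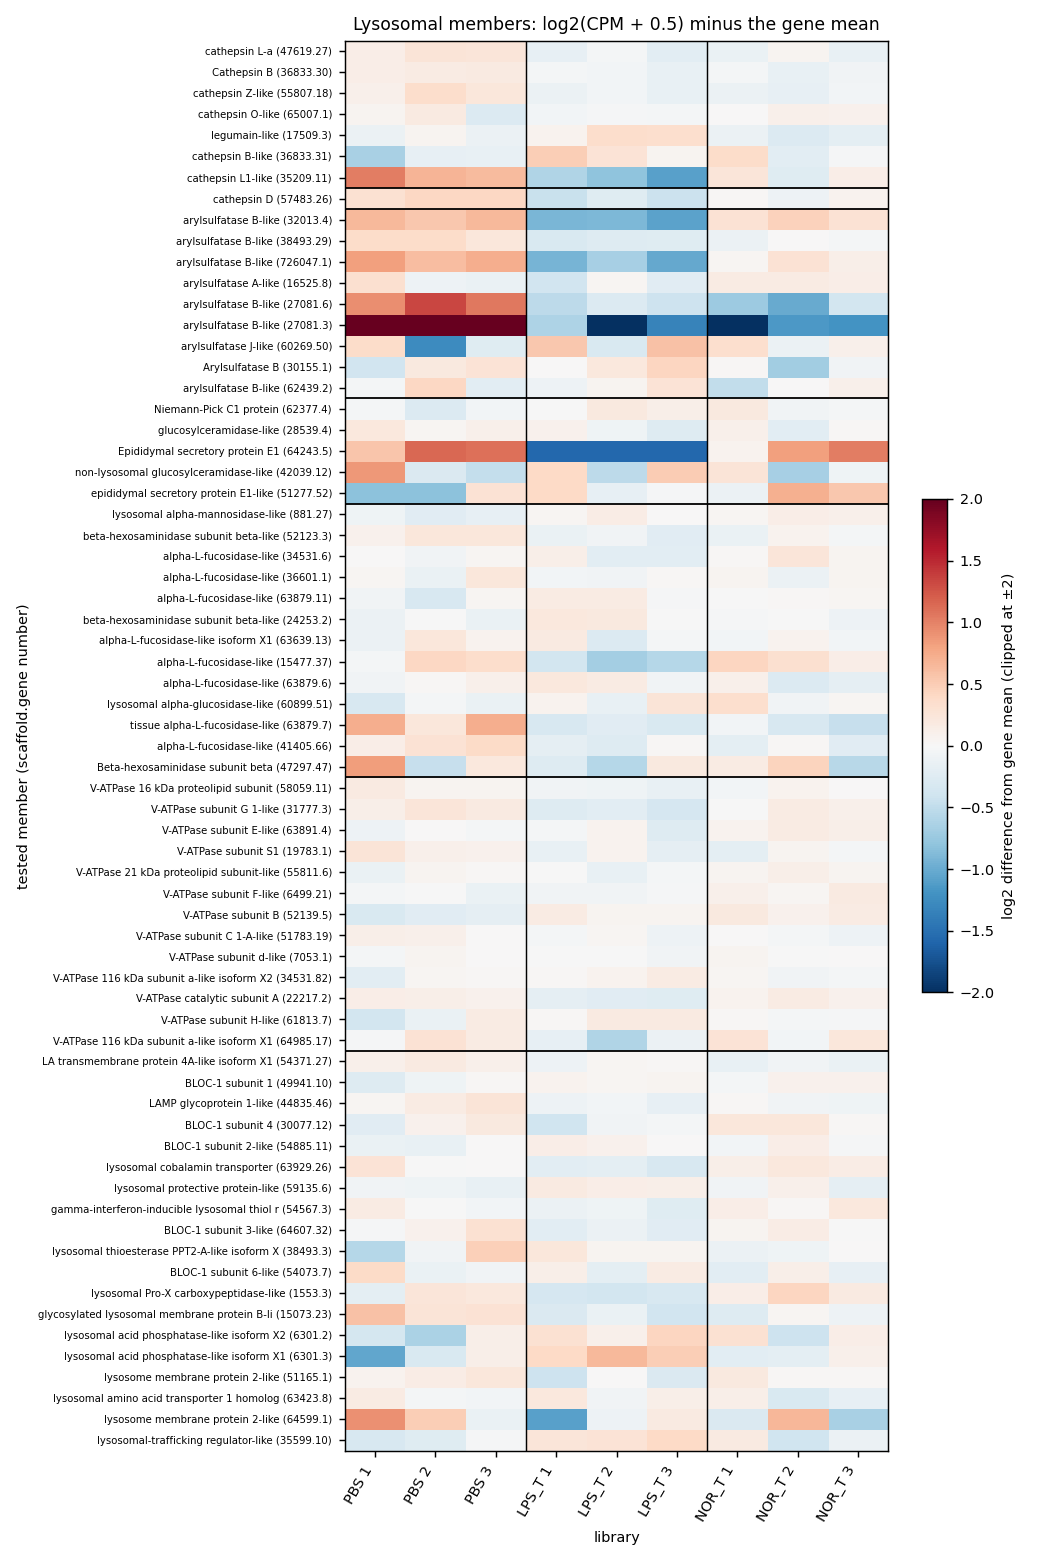
Each row is 1 of the 67 tested members and each column 1 of the 9 libraries; colour gives log2(CPM + 0.5) minus the mean of that gene, clipped at 2 either way, and horizontal lines part the role classes in the order cysteine cathepsins and legumain, cathepsin D, sulfatases, lipid handling, glycosidases, proton pump subunits, and lysosomal membrane and other. The sulfatases and Epididymal secretory protein E1 show the strongest contrasts between groups, while most pump and membrane genes stay pale.

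With TMM scaling, more of these genes fell than rose in the hemocytes that had received exosomes; without it 3 fell and 2 rose in NOR_T. When the exosome groups were averaged and set against PBS, 22 of 67 tested members fell and 2 rose, where 15% of all tested genes fell and 14.6% rose. In LPS_T against PBS, 23 fell and 4 rose, against 15.2% and 17.9% of all genes. In NOR_T against PBS, 13 fell and 2 rose, against 13.5% and 11.4% of all genes. Both of these comparisons use the same PBS libraries and are not independent. Between the exosome groups, 11 members were higher in NOR_T than in LPS_T and 1 was lower, against 8.89% and 12.6% of all genes. In either direction, 35.8% of members were called for both exosome groups, beside 29.5% of all tested genes. The share was 40.3% in LPS_T and 22.4% in NOR_T, beside 33% and 24.9% of all tested genes. Between the exosome groups 17.9% of members were called, beside 21.5% of all genes. Falls of at least 2-fold were seen in 5 members for both exosome groups, where 2.89% of all tested genes fell as far, in 6 in LPS_T and in 2 in NOR_T, where 3.45% and 4.99% did. These counts include evm.TU.scaffold27081.3, the sulfatase whose difference from PBS was built in by the filter; without it 21, 22 and 12 of 66 members fell for both groups, in LPS_T and in NOR_T, and 4, 5 and 1 fell at least 2-fold. From LPS_T to NOR_T 4 members were higher by at least 2-fold, beside 1.67% of all tested genes.

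The shift of a typical member was small. The median log2 change of the tested members was -0.09 for both exosome groups, -0.11 for LPS_T and -0.08 for NOR_T, beside 0.00, 0.03 and 0.00 over all tested genes. From LPS_T to NOR_T it was 0.05, beside 0.00 over all tested genes. Leaving out the 8 BLOC-1, non-lysosomal and hexosaminidase D matches, 22 of 61 tested members fell and 2 rose in both exosome groups together. Without PBS 1 the members called were 2 higher and 20 lower for both exosome groups, 4 higher and 24 lower for LPS_T, 2 higher and 13 lower for NOR_T, and 16 higher and 3 lower from LPS_T to NOR_T. Single libraries also set the small counts of members that rose: without PBS 3 they numbered 5 for both exosome groups, and without LPS_T 2 or LPS_T 3 they numbered 2 in LPS_T. The 1 member lower in NOR_T than in LPS_T became 2 without PBS 3 or NOR_T 1 and 0 without LPS_T 2, LPS_T 3, NOR_T 2 or NOR_T 3.

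The number of calls depended on the scaling. Without TMM the median change of all genes moved from 0.03 to 0.13 in LPS_T against PBS, and to 0.17 on log2(FPKM + 1) with limma, and fewer falls were called. The members called were then 2 higher and 10 lower for both exosome groups, 4 higher and 12 lower for LPS_T and 2 higher and 3 lower for NOR_T without TMM. The members that fell were then 14.9% of those tested for both exosome groups, 17.9% for LPS_T and 4.48% for NOR_T, beside 7.74%, 7.79% and 7.9% of all tested genes, so in NOR_T the share of members that fell was below that of all genes. With limma 8 members fell in LPS_T and 3 in NOR_T, or 11.9% and 4.48%, beside 5% and 4.84% of all genes. The tested members behind these shares, without TMM and with limma, still include evm.TU.scaffold27081.3, whose difference from PBS was built in by the filter. Over all genes the split for LPS_T moved from 2085 higher and 1770 lower to 2064 and 910 without TMM, and to 1883 and 584 with limma. From LPS_T to NOR_T it moved from 1038 and 1471 to 496 and 1222, and to 356 and 1057. Relative to the median of all genes the members' median moved less: in LPS_T it lay at -0.14 with TMM, -0.15 without it and -0.11 with limma, and in NOR_T at -0.08, -0.08 and -0.04. With the 2 dominant genes of PBS 1 kept out of the library sizes and still no TMM, an alternative chosen after seeing the data, the members called were 2 higher and 21 lower for both exosome groups, 5 higher and 22 lower for LPS_T, and 2 higher and 13 lower for NOR_T.

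**Figure D2:**
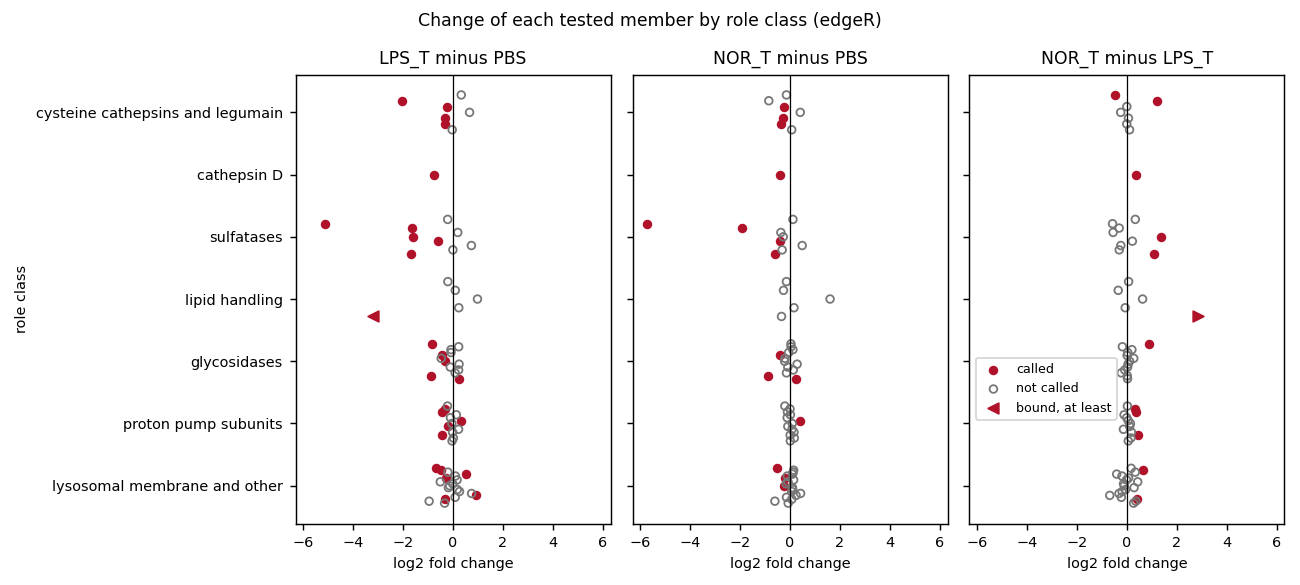
Each point is the log2 fold change (x axis) of 1 tested member in edgeR with TMM scaling, placed by role class (y axis), for LPS_T minus PBS, NOR_T minus PBS and NOR_T minus LPS_T; filled points passed the adjusted p, open points did not, and the triangle is Epididymal secretory protein E1 drawn at its bound because it had no counts in LPS_T. The lowest sulfatase point of the panels against PBS is the gene that passed the filter through PBS alone. The gene drawn as a triangle passed it through PBS and NOR_T alone. Large falls lie in the sulfatases, 1 cathepsin L1-like gene and the lipid-handling class, and every other called change against PBS is smaller than 1 on this scale; many of these small falls are not called without TMM.

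Markers of other cells differed between the same groups. For scale, 15.2% of all tested genes fell and 17.9% rose in LPS_T, and 13.5% fell and 11.4% rose in NOR_T. Ciliated epithelium (68 of 85 genes tested) summed to 669 to 855 CPM in PBS, 1184 to 1226 CPM in LPS_T and 489 to 507 CPM in NOR_T; 40 rose and 2 fell in LPS_T, 3 rose and 31 fell in NOR_T. Gonad markers (21 of 25 genes tested) summed to 1728 to 1864 CPM in PBS, 2247 to 2479.5 CPM in LPS_T and 1408 to 1485 CPM in NOR_T; 7 rose and 3 fell in LPS_T, 1 rose and 10 fell in NOR_T. LPS_T was thus the highest and NOR_T the lowest group in both lists. Hemocyte markers (10 of 32 genes tested) summed to 12060.0 to 12502 CPM in PBS, 9682 to 10184 CPM in LPS_T and 12570.0 to 13169.7 CPM in NOR_T, and 3 rose and 4 fell in LPS_T, 4 rose and 3 fell in NOR_T. An allograft inflammatory factor-1-like gene made up 75.0% of their summed FPKM, and 21 stayed under an FPKM of 1 in every library, so the hemocyte label rests on few of its markers. Adductor muscle markers (13 of 13 genes tested) summed to 6067 to 6571 CPM in PBS, 5967 to 6690.5 CPM in LPS_T and 6568 to 7047 CPM in NOR_T, and 1 rose and 0 fell in LPS_T, 2 rose and 0 fell in NOR_T. Nerve markers (12 of 99 genes tested) summed to 454 to 464 CPM in PBS, 338 to 349.9 CPM in LPS_T and 414 to 421 CPM in NOR_T, and 1 rose and 5 fell in LPS_T, 2 rose and 2 fell in NOR_T. The digestive gland, an organ rich in lysosomes, was followed by 39 markers (6 tested), which summed to 238 to 251 CPM in PBS, 212 to 239 CPM in LPS_T and 242 to 272 CPM in NOR_T, and 2 rose and 0 fell in LPS_T, 0 rose and 0 fell in NOR_T. Of these, 1 chitinase held 90.0% of their summed FPKM, and the 15 amylase, trypsin and pancreatic lipase genes never exceeded an FPKM of 1.78. No list had a gene at 0 in every library (0 genes). The part of these cell types in the lysosomal results was not tested.

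Among the proteases, the abundant cysteine cathepsins fell in both exosome groups with TMM scaling. Without TMM, and likewise with limma, 1 gene of their class was called lower in LPS_T and 0 in NOR_T. Of the 7 tested cysteine cathepsins and legumain, 4 fell and 0 rose in LPS_T, and 3 fell and 0 rose in NOR_T. Over all tested genes 15.2% and 13.5% fell, and 17.9% and 11.4% rose. At an unadjusted p under 0.05, edgeR placed 2 higher in LPS_T and 0 in NOR_T, and DESeq2 and limma called 0 and 0 higher in LPS_T. Cathepsin L-a, an endopeptidase, stood at 487, 532 and 528 CPM in PBS, 399, 435 and 385 CPM in LPS_T and 409, 462 and 401 CPM in NOR_T. All 3 PBS libraries lay above all 6 exosome libraries, and the exosome groups overlapped. Its log2 changes were -0.34 (SE 0.06, adjusted p = 0.000663) in LPS_T and -0.28 (SE 0.06, adjusted p = 0.00418) in NOR_T.

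Cathepsin B (evm.TU.scaffold36833.30), an endopeptidase that also cuts pairs of residues from the end of proteins, was measured at 204, 208 and 209.8 CPM in PBS, 179.6, 179 and 168 CPM in LPS_T and 181, 167 and 177 CPM in NOR_T. The PBS values were tightly grouped and higher than every exosome value. It fell in both groups, with log2 changes of -0.24 (SE 0.06, adjusted p = 0.00364) in LPS_T and -0.24 (SE 0.06, adjusted p = 0.00456) in NOR_T. Its neighbour on the scaffold, cathepsin B-like (evm.TU.scaffold36833.31), had 1.67, 2.57 and 2.60 CPM in PBS, 4.30, 3.63 and 3.06 CPM in LPS_T and 3.90, 2.47 and 2.85 CPM in NOR_T, and did not pass the test (smallest adjusted p over the 4 comparisons = 0.0971). Cathepsin Z-like (evm.TU.scaffold55807.18), a carboxypeptidase, had 108, 129 and 118 CPM in PBS, 93.2, 97.1 and 90.5 CPM in LPS_T and 92.5, 89.5 and 97.4 CPM in NOR_T. Here too PBS lay above both exosome groups without overlap, with changes of -0.34 (SE 0.07, adjusted p = 0.00207) and -0.34 (SE 0.07, adjusted p = 0.00252). The number of genes of this class called lower was 1 in LPS_T and 0 in NOR_T without TMM scaling, and 1 and 0 with limma, against 4 and 3.

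Cathepsin L1-like (evm.TU.scaffold35209.11; positions 471682 to 476903 of its scaffold, plus strand) had the largest called fall of the tested proteases. It stood at 4.71, 3.62 and 3.49 CPM in PBS, 1.19, 0.965 and 0.708 CPM in LPS_T and 2.55, 1.66 and 2.31 CPM in NOR_T. The 3 groups did not overlap, with LPS_T lowest and NOR_T in between. The log2 change was -2.03 (SE 0.34, adjusted p = 0.00028) in LPS_T, and in NOR_T it was -0.85 and missed the threshold (adjusted p = 0.0734). NOR_T exceeded LPS_T by a log2 change of 1.19 (SE 0.34, adjusted p = 0.0195), a call that is lost without LPS_T 3, NOR_T 1 or NOR_T 3. With a mean FPKM of 1.67, the lowest among the tested genes of its class, this gene lay near the filter's limit. It may have passed the filter through PBS and NOR_T alone, so its differences from LPS_T are best read as a description. Of the 2 other cathepsin L1 genes beside it on the scaffold, neither reached a level that could be tested: evm.TU.scaffold35209.10 averaged 0.416 CPM in PBS and 0.0456 CPM in LPS_T, and evm.TU.scaffold35209.12 0.463 and 0.0311 CPM.

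Cathepsin D (evm.TU.scaffold57483.26; positions 519905 to 527767 of its scaffold, plus strand), the aspartic protease of the lysosome, was lowest in LPS_T. It stood at 81.8, 87.7 and 88.0 CPM in PBS, 48.3, 55.5 and 48.6 CPM in LPS_T and 66.7, 61.4 and 69.5 CPM in NOR_T. The groups were fully separate, in the order PBS, NOR_T, LPS_T. The log2 change was -0.76 (SE 0.08, adjusted p = 3.19e-06) in LPS_T and -0.38 (SE 0.08, adjusted p = 0.00251) in NOR_T, and the difference between the exosome groups was itself called, at 0.37 (SE 0.08, adjusted p = 0.00304). Of these calls, only the fall in LPS_T was also made without TMM scaling and with limma; the fall in NOR_T and the difference between the exosome groups were lost in both. Legumain-like (evm.TU.scaffold17509.3), a protease that cuts after asparagine and processes cathepsins in mammals, went the other way between the exosome groups. Its values were 12.3, 14.0 and 12.3 CPM in PBS, 14.2, 17.3 and 17.0 CPM in LPS_T and 12.3, 11.03 and 11.6 CPM in NOR_T. LPS_T was the highest group and NOR_T overlapped PBS. Against PBS neither exosome group passed (adjusted p = 0.0683 and 0.486), while NOR_T lay below LPS_T at -0.47 (SE 0.13, adjusted p = 0.0163) on the log2 scale. That call is lost without LPS_T 2, LPS_T 3, NOR_T 2 or NOR_T 3.

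**Figure D3:**
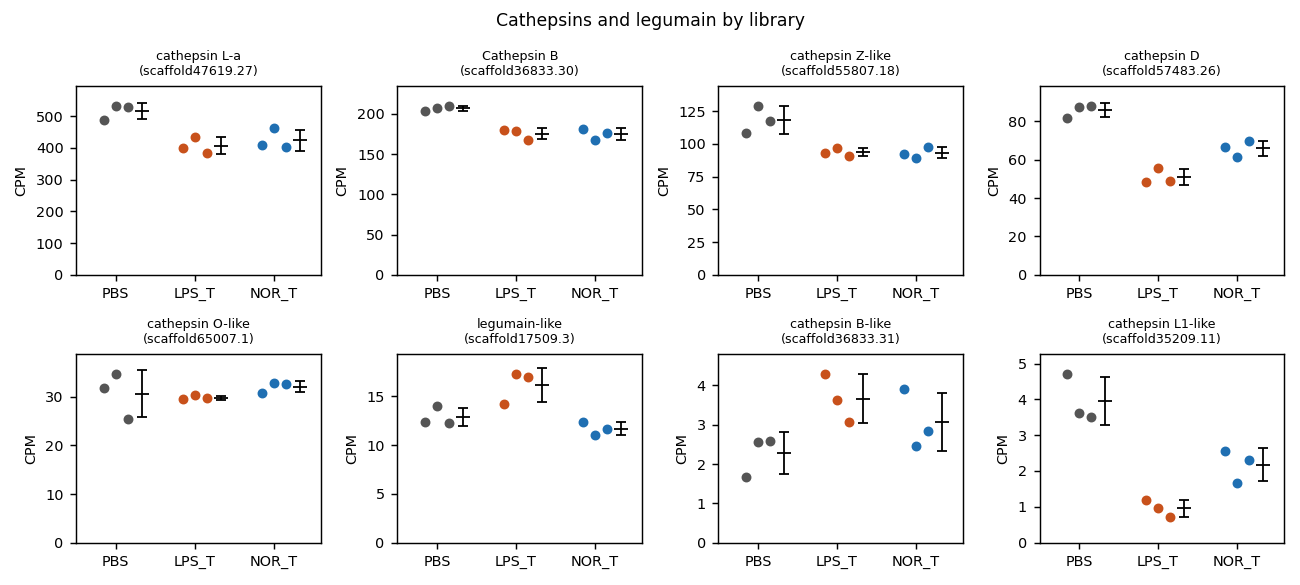
CPM (y axis, from 0) of the 8 tested cathepsins and legumain in each library of PBS, LPS_T and NOR_T, ordered by FPKM; points are libraries and the bars beside them the group mean ± SD (n = 3). Cathepsin D and cathepsin L1-like are lowest in LPS_T and intermediate in NOR_T, while cathepsins L-a, B and Z-like sit at similar levels in both exosome groups.

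Among the sulfatases, several genes fell far in one or both exosome groups. These enzymes take sulfate off sugars and lipids, and arylsulfatase B in mammals acts on dermatan and chondroitin sulfate. Of 9 tested sulfatases, 5 fell and 0 rose in LPS_T, with a median log2 change of -0.60. In NOR_T 4 fell and 0 rose, with a median of -0.37. The shares of all tested genes that fell were 15.2% in LPS_T and 13.5% in NOR_T, and 17.9% and 11.4% rose. Leaving out evm.TU.scaffold27081.3, whose difference from PBS the filter built in, 4 of 8 fell in LPS_T and 3 in NOR_T, with medians of -0.41 and -0.34. DESeq2 and limma also called 0 and 0 higher in LPS_T, and at an unadjusted p under 0.05 edgeR placed 0 higher in LPS_T and 0 in NOR_T. Over all 9, the number that fell was 5 in LPS_T and 2 in NOR_T without TMM scaling, and 4 and 2 with limma. The sums over all 19 sulfatases were 164 to 173 CPM in PBS, 85.3 to 94.5 CPM in LPS_T and 118 to 123 CPM in NOR_T. Of the 19, 12 carry no entry in the KEGG orthology column of the deposited table, and 3 of the 5 of these that were tested, the gene named above left out, fell in LPS_T.

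Arylsulfatase B-like evm.TU.scaffold32013.4 (positions 59753 to 65541 of its scaffold, minus strand) was read at 32.5, 30.3 and 32.5 CPM in PBS, 10.7, 10.8 and 9.59 CPM in LPS_T and 25.2, 28.6 and 25.3 CPM in NOR_T. All 3 LPS_T libraries lay at about the same low level, and NOR_T was close below PBS without overlapping it. The log2 change was -1.61 (SE 0.11, adjusted p = 1.6e-08) in LPS_T, and in NOR_T it was -0.27 and missed the threshold (adjusted p = 0.0748). NOR_T exceeded LPS_T by a log2 change of 1.34 (SE 0.11, adjusted p = 1.96e-07). A second gene of that name, evm.TU.scaffold726047.1, showed a similar order. Its values were 15.3, 13.2 and 14.4 CPM in PBS, 4.20, 5.18 and 3.93 CPM in LPS_T and 8.71, 10.5 and 9.23 CPM in NOR_T, again with no overlap between any groups. It fell in both exosome groups, by a log2 change of -1.68 (SE 0.16, adjusted p = 9.49e-07) and -0.59 (SE 0.16, adjusted p = 0.0112), and was higher in NOR_T than in LPS_T by a log2 change of 1.09 (SE 0.16, adjusted p = 0.000105). The order was not particular to sulfatases. Uncharacterized neighbours of evm.TU.scaffold32013.4, looked at after their values were seen, also fell in LPS_T. The log2 changes were -1.07 for evm.TU.scaffold32013.3 and -1.46 for evm.TU.scaffold32013.1, and 0.43 and 1.48 from LPS_T to NOR_T, all called. On the other side evm.TU.scaffold32013.6 was not called, at 0.49 in LPS_T.

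Arylsulfatase B-like evm.TU.scaffold38493.29, which carries a KEGG orthology entry for arylsulfatase B, averaged 25.1 FPKM, close to the 25.4 FPKM of evm.TU.scaffold32013.4. It had 55.5, 55.8 and 50.7 CPM in PBS, 34.7, 35.7 and 36.5 CPM in LPS_T and 39.7, 43.1 and 41.7 CPM in NOR_T. The groups were separate, and both exosome groups lay below PBS. The changes were -0.60 (SE 0.08, adjusted p = 4.22e-05) and -0.38 (SE 0.08, adjusted p = 0.00307), and the difference between the exosome groups did not pass (adjusted p = 0.0753). The 4 sulfatases not called in LPS_T had log2 changes from -0.22 to 0.73, and among them the arylsulfatase A-like gene, named after its values were seen, stood at 24.2 ± 4.55 CPM in PBS, 20.7 ± 3.14 CPM in LPS_T and 26.1 ± 0.270 CPM in NOR_T (SD, n = 3).

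A cluster of 4 arylsulfatase B genes lies in a row on scaffold27081, between positions 21346 and 95959 (the genome build is not given in the sources used here). Of its genes, 2 were tested. The first, evm.TU.scaffold27081.3 (positions 21346 to 34954 of its scaffold, minus strand), was read at 13.6, 12.9 and 13.1 CPM in PBS, 0.817, 0 and 0.297 CPM in LPS_T and 0, 0.406 and 0.377 CPM in NOR_T. Its 3 PBS values were close together, and it was at or near 0 in every exosome library, with no count in LPS_T 2 and NOR_T 1. This is the gene that passed the filter through PBS alone, so its values are given as a description, with no test; the fitted log2 changes were -5.14 in LPS_T and -5.71 in NOR_T, and with so few counts left their size is poorly known.

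Its neighbour evm.TU.scaffold27081.6 (positions 82788 to 95959 of its scaffold, minus strand) was lower in both exosome groups. It had 11.7, 15.5 and 12.7 CPM in PBS, 3.92, 4.76 and 4.29 CPM in LPS_T and 3.35, 2.66 and 4.44 CPM in NOR_T. PBS lay far above both exosome groups, which overlapped each other. The log2 changes were -1.63 (SE 0.21, adjusted p = 1.88e-05) and -1.93 (SE 0.21, adjusted p = 6.75e-06). Arylsulfatase B evm.TU.scaffold27081.5 was too low to be tested, at 2.05, 1.73 and 2.68 CPM in PBS, 0.187, 0.447 and 0.320 CPM in LPS_T and 0.143, 0 and 0 CPM in NOR_T, but was again higher in every PBS library than in any exosome library. The remaining gene of the cluster, evm.TU.scaffold27081.4, averaged 0.370 CPM in PBS. Reads of near-identical copies may have been split between these genes in the authors' counting, so the share of each is uncertain. The next genes on either side of the cluster, evm.TU.scaffold27081.2 and evm.TU.scaffold27081.7, averaged 0.141 and 0.111 CPM in PBS.

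A second cluster of 4 sulfatases lies on scaffold60269, between positions 969623 and 1051102, and only 1 of its genes was tested. That gene, arylsulfatase J-like evm.TU.scaffold60269.50, had 3.35, 0.744 and 2.02 CPM in PBS, 3.83, 1.93 and 3.99 CPM in LPS_T and 3.28, 2.25 and 2.69 CPM in NOR_T, with all groups overlapping. Its untested neighbours, looked at after their values were seen, did not follow one pattern. evm.TU.scaffold60269.52 had 1.49, 3.02 and 4.32 CPM in PBS, 0.280, 0.353 and 0 CPM in LPS_T and 0, 0 and 0.484 CPM in NOR_T, and every PBS value was higher than every exosome value. evm.TU.scaffold60269.51 had 0.868, 1.66 and 0.831 CPM in PBS, 0.654, 1.18 and 0.388 CPM in LPS_T and 0.595, 0.938 and 0.861 CPM in NOR_T, with all groups overlapping. evm.TU.scaffold60269.53 had 4.53, 4.73 and 5.11 CPM in PBS, 3.99, 3.34 and 4.13 CPM in LPS_T and 6.14, 4.69 and 3.66 CPM in NOR_T; every LPS_T value was below every PBS value, and NOR_T overlapped both.

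When all genes were tested without a filter, 2 of the 10 otherwise untested sulfatases were called lower and 1 higher in LPS_T, and 2 lower and 0 higher in NOR_T. Those lower were evm.TU.scaffold27081.5, at -2.74 (adjusted p = 0.00668) in LPS_T and -5.29 (adjusted p = 7.72e-06) in NOR_T, and evm.TU.scaffold60269.52, at -3.80 (adjusted p = 8.13e-05) and -4.15 (adjusted p = 4.33e-05). The one higher was arylsulfatase B evm.TU.scaffold51783.7, at 0, 0.816 and 1.15 CPM in PBS, 1.21, 3.06 and 2.33 CPM in LPS_T and 2.09, 1.28 and 1.29 CPM in NOR_T. PBS lay below LPS_T and NOR_T without overlap, and PBS 1 held no count. Its change was 1.63 (adjusted p = 0.0247) in LPS_T, 1.15 (adjusted p = 0.17) in NOR_T and 1.39 (adjusted p = 0.0393) in the mean of both. The neighbours evm.TU.scaffold60269.51 and evm.TU.scaffold60269.53 were not called, at -0.60 (adjusted p = 0.613) and -0.32 (adjusted p = 0.46) in LPS_T. Over all 28 untested members the calls were 3 lower and 1 higher in LPS_T and 3 lower and 0 higher in NOR_T; outside the sulfatases these were lysosomal Pro-X carboxypeptidase-like evm.TU.scaffold1553.4 in LPS_T, at -7.05 (adjusted p = 0.0435), and Niemann-Pick C1 protein evm.TU.scaffold64345.6 in NOR_T, at -2.30 (adjusted p = 0.0186). Over all 21617 genes, the fit without a filter called 1858 lower and 2277 higher in LPS_T, and 1851 lower and 1548 higher in NOR_T. These fits of the untested members rest on few counts. The gene evm.TU.scaffold1553.4 had no count in LPS_T and 0.424 ± 0.734 CPM in PBS (SD, n = 3), all of it from 1 library. With LPS_T set at 3 fragments in each library, its fall was at least 1.62-fold, so the size of the fitted -7.05 is poorly known.

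**Figure D4:**
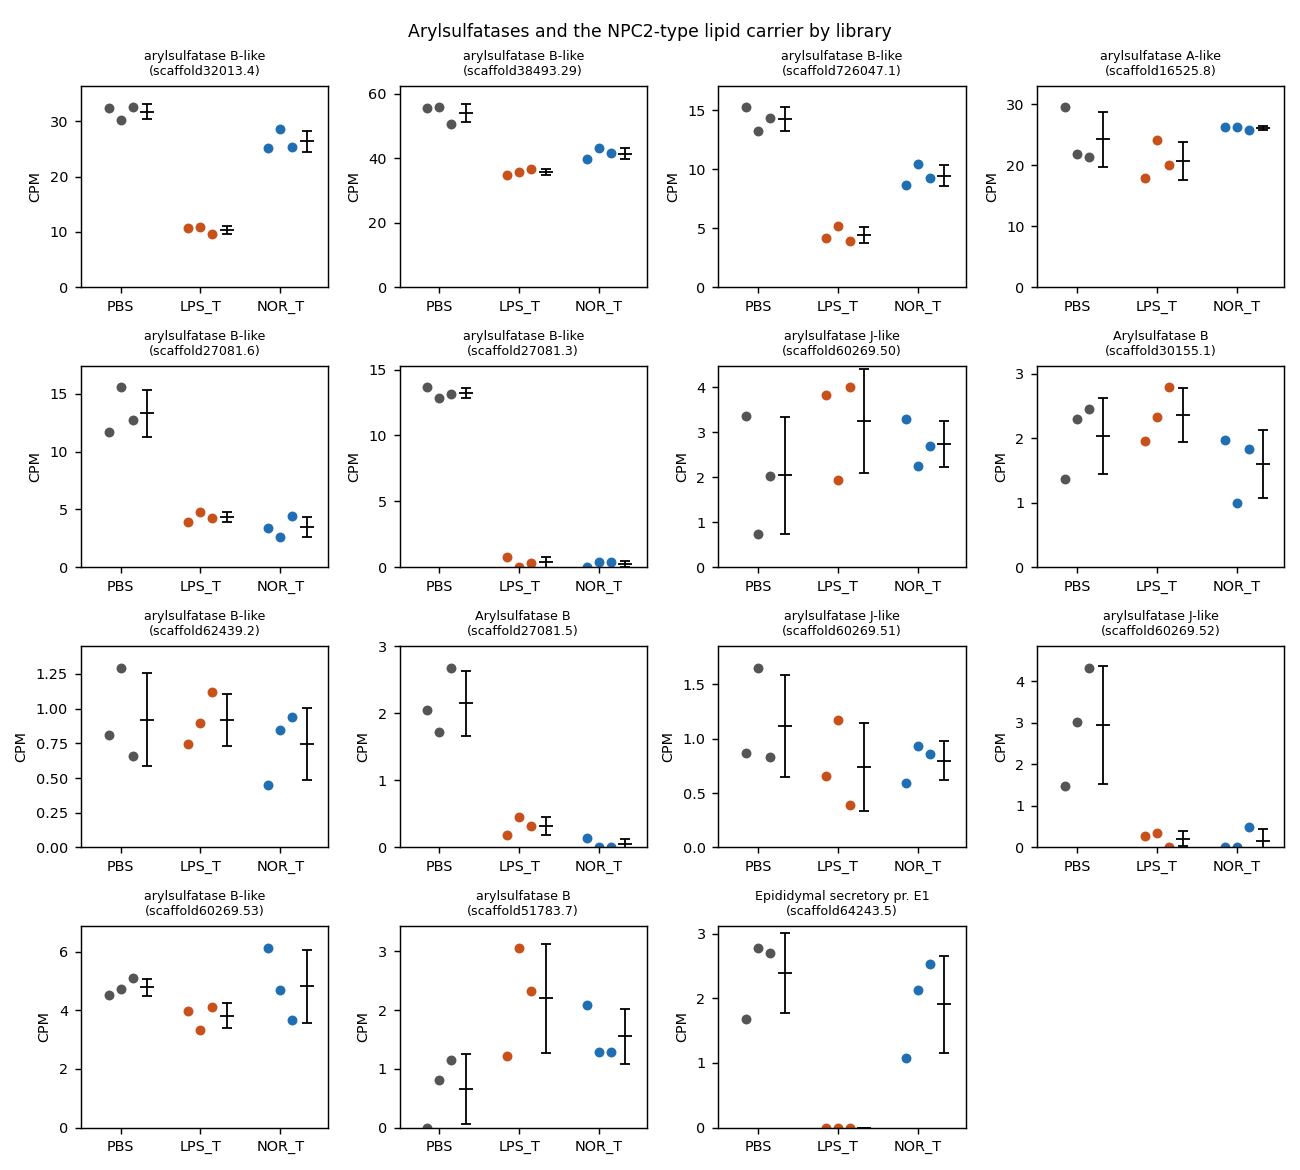
CPM (y axis, from 0) by library for the 9 tested sulfatases, the untested evm.TU.scaffold27081.5, evm.TU.scaffold60269.51, evm.TU.scaffold60269.52, evm.TU.scaffold60269.53 and evm.TU.scaffold51783.7, and Epididymal secretory protein E1; points are libraries of PBS, LPS_T and NOR_T and bars the group mean ± SD (n = 3). In evm.TU.scaffold32013.4 and evm.TU.scaffold726047.1 LPS_T is the lowest group and NOR_T lies between, the scaffold27081 genes are low in both exosome groups, and evm.TU.scaffold51783.7 is lowest in PBS.

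The glycosidases were mixed. Of 13 tested, 4 fell and 1 rose in LPS_T, and 2 fell and 1 rose in NOR_T. Over all tested genes 15.2% and 13.5% fell, and 17.9% and 11.4% rose. The falls numbered 2 in LPS_T and 1 in NOR_T without TMM scaling, and 1 and 1 with limma. The gene that rose was the abundant alpha-mannosidase, at 5105, 4641 and 4831 CPM in PBS, 5558, 6029 and 5412 CPM in LPS_T and 5542, 5962 and 5789 CPM in NOR_T. Both exosome groups lay above every PBS library and overlapped each other. The log2 change was 0.22 (SE 0.06, adjusted p = 0.0106) in LPS_T and 0.25 (SE 0.06, adjusted p = 0.00724) in NOR_T, and the call in LPS_T is lost without LPS_T 2 or NOR_T 3. The call in NOR_T is lost with limma on log2(FPKM + 1), where 0 glycosidases were called higher. Because this gene made up 91.6% of the summed FPKM of the class, class sums follow it. Beta-hexosaminidase subunit beta-like (evm.TU.scaffold52123.3), which removes terminal hexosamines, had 88.4, 97.5 and 98.2 CPM in PBS, 76.1, 79.7 and 71.7 CPM in LPS_T and 76.0, 87.8 and 81.4 CPM in NOR_T. It was lower than PBS in every exosome library; it fell in LPS_T by a log2 change of -0.32 (SE 0.08, adjusted p = 0.00425), and in NOR_T its change of -0.22 missed the threshold (adjusted p = 0.0524).

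All 8 alpha-L-fucosidases, which remove fucose from glycoproteins and glycolipids, were tested. Among them 3 fell in LPS_T and 2 in NOR_T, where 15.2% and 13.5% of all tested genes fell. In the same order 0 and 0 rose, beside 17.9% and 11.4% of all tested genes. The same 0 higher was found by edgeR at an unadjusted p under 0.05 and by DESeq2 and limma in both groups. The falls numbered 2 in LPS_T and 1 in NOR_T without TMM scaling, and 1 and 1 with limma. Alpha-L-fucosidase-like evm.TU.scaffold15477.37 was lowest in LPS_T, at 9.43, 13.1 and 12.5 CPM in PBS, 7.43, 5.89 and 6.39 CPM in LPS_T and 13.3, 12.3 and 10.7 CPM in NOR_T. PBS and NOR_T overlapped, and LPS_T lay below both. It fell in LPS_T by a log2 change of -0.84 (SE 0.17, adjusted p = 0.00105), its change in NOR_T was 0.04 (adjusted p = 0.903), and NOR_T exceeded LPS_T by a log2 change of 0.88 (SE 0.17, adjusted p = 0.000989).

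Tissue alpha-L-fucosidase-like (evm.TU.scaffold63879.7) was lower in both exosome groups. It had 17.4, 12.2 and 17.5 CPM in PBS, 8.27, 8.83 and 8.33 CPM in LPS_T and 10.0, 8.19 and 7.45 CPM in NOR_T. PBS lay above both groups, although PBS 2 was well below the other PBS libraries. The log2 changes were -0.89 (SE 0.17, adjusted p = 0.000765) and -0.87 (SE 0.17, adjusted p = 0.00131). Its direct neighbour evm.TU.scaffold63879.6 had changes of 0.08 (adjusted p = 0.732) and -0.14 (adjusted p = 0.568), and evm.TU.scaffold63879.11 on the same scaffold had 0.22 and 0.13, also not called. A further fucosidase, evm.TU.scaffold41405.66, fell by a log2 change of -0.43 (SE 0.13, adjusted p = 0.0199) and -0.42 (SE 0.13, adjusted p = 0.0283). Its call in LPS_T is lost without PBS 2, PBS 3, LPS_T 1 or LPS_T 2, and that in NOR_T without PBS 2, PBS 3, NOR_T 1 or NOR_T 3. The 8 glycosidases not called in LPS_T ranged from -0.48 to 0.24 and the 10 not called in NOR_T from -0.22 to 0.28.

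In the lipid-handling class, the gene evm.TU.scaffold64243.5 (positions 103699 to 108289 of its scaffold, plus strand), annotated as Epididymal secretory protein E1, an older name of the cholesterol carrier NPC2, was without a single count in LPS_T. It stood at 1.67, 2.78 and 2.70 CPM in PBS, 0, 0 and 0 CPM in LPS_T and 1.07, 2.13 and 2.53 CPM in NOR_T. PBS and NOR_T overlapped. With LPS_T set at 3 fragments in each library, a limit on counting error alone, the level in LPS_T was at least 9.11-fold lower than in PBS, and NOR_T was at least 7.28-fold higher than LPS_T. This gene passed the filter through PBS and NOR_T alone, the groups where it was high. Its differences from LPS_T are therefore given as a description, with no test. In NOR_T against PBS edgeR did not call it (adjusted p = 0.653). Its expression was weak: the libraries held between 27 and 127 estimated counts in PBS and between 45 and 94 in NOR_T, at 3.69 to 3.78 counts per fragment.

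Its partner in vertebrates, the membrane protein NPC1 (evm.TU.scaffold62377.4), had 41.5, 35.4 and 41.1 CPM in PBS, 42.4, 49.0 and 46.5 CPM in LPS_T and 49.1, 40.9 and 41.5 CPM in NOR_T. NOR_T overlapped both other groups, and LPS_T lay just above PBS. Neither change passed, at 0.23 (adjusted p = 0.101) and 0.16 (adjusted p = 0.293). Glucosylceramidase-like (evm.TU.scaffold28539.4), which splits glucosylceramide, had overlapping groups at 9.87 ± 0.626 CPM in PBS, 8.51 ± 1.07 CPM in LPS_T and 8.90 ± 1.04 CPM in NOR_T (SD, n = 3), with changes of -0.21 and -0.14 that did not pass (adjusted p = 0.346 and 0.568). Another gene of the same annotation as the NPC2-type carrier, epididymal secretory protein E1-like evm.TU.scaffold51277.52, averaged 0.683 FPKM and was not called, at 0.97 (adjusted p = 0.521) in LPS_T and 1.60 (adjusted p = 0.3) in NOR_T. Of the 5 tested genes of this class edgeR called 1 lower in LPS_T, the gene without counts there, and 0 in NOR_T. Over all tested genes 15.2% and 13.5% fell. The count in NOR_T was also 0 at an unadjusted p under 0.05 and 0 and 0 with DESeq2 and limma.

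The subunits of the proton pump differed in direction. Of 13 tested subunits, 4 fell and 1 rose in LPS_T, and 0 fell and 1 rose in NOR_T; from LPS_T to NOR_T 3 were higher and 0 lower. In either direction 38.5% of subunits were called in LPS_T and 7.69% in NOR_T, beside 33% and 24.9% of all tested genes. Between the exosome groups the shares were 23.1% and 21.5%. At an unadjusted p under 0.05, edgeR placed 1 lower in NOR_T, and DESeq2 and limma called 0 and 0. Summed over the 13 genes, the level was 2164 to 2205 CPM in PBS, 1938 to 2021 CPM in LPS_T and 2107 to 2223 CPM in NOR_T. Without TMM scaling 1 subunit, against 4, was called lower in LPS_T (with limma 0), and 0, against 3, were called between the exosome groups. The median log2 change of the class in LPS_T was -0.05 with TMM and turned to 0.05 without it and 0.13 with limma, where the median of all genes also moved up as given above.

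In the V1 sector, catalytic subunit A (evm.TU.scaffold22217.2), which with subunit B forms the ATP-hydrolysing head, had 184, 182 and 178 CPM in PBS, 149, 145 and 142 CPM in LPS_T and 176, 189 and 179 CPM in NOR_T. LPS_T lay below both other groups, and NOR_T overlapped PBS. The log2 change was -0.32 (SE 0.06, adjusted p = 0.000319) in LPS_T, 0.00 in NOR_T (adjusted p = 0.999), and 0.32 (SE 0.06, adjusted p = 0.000413) from LPS_T to NOR_T. Subunit B (evm.TU.scaffold52139.5) went the other way, at 131, 139 and 143 CPM in PBS, 184, 169 and 170.2 CPM in LPS_T and 186, 173 and 182 CPM in NOR_T. Every exosome library exceeded every PBS library. It rose by a log2 change of 0.34 (SE 0.06, adjusted p = 0.000506) in LPS_T and 0.39 (SE 0.06, adjusted p = 0.000218) in NOR_T, and the exosome groups overlapped.

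Subunit G 1-like (evm.TU.scaffold31777.3), part of the stalk that holds the head in place, had 145, 158 and 152 CPM in PBS, 112, 114 and 105 CPM in LPS_T and 133, 149 and 142 CPM in NOR_T. LPS_T was clearly lowest and NOR_T overlapped the low end of PBS. It fell by a log2 change of -0.46 (SE 0.06, adjusted p = 4.79e-05) in LPS_T and in NOR_T the change was -0.10 (adjusted p = 0.277), and NOR_T exceeded LPS_T by a log2 change of 0.35 (SE 0.06, adjusted p = 0.000666). The other V1 subunits, C 1-A-like, E-like, F-like and H-like, were not called in either exosome group. Their log2 changes in LPS_T were -0.11, -0.02, 0.01 and 0.22, and in NOR_T -0.11, 0.16, 0.17 and 0.08.

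In the Vo sector, the 16 kDa proteolipid, which builds the proton-carrying ring, had 1134, 1047 and 1046 CPM in PBS, 958, 944 and 910.4 CPM in LPS_T and 965, 1058 and 1014 CPM in NOR_T. LPS_T lay below both other groups. It fell by a log2 change of -0.20 (SE 0.06, adjusted p = 0.0116) in LPS_T, while NOR_T, which overlapped PBS, had a log2 change of -0.09 without passing (adjusted p = 0.287). In the mean of both exosome groups this gene and subunit A were called lower, at -0.14 and -0.16, but with limma on log2(FPKM + 1) both changes turn positive, to 0.02 and 0.01. Of the 2 genes for the 116 kDa subunit a, which forms the proton path, the isoform X1-like gene (evm.TU.scaffold64985.17) had 25.1, 31.1 and 28.4 CPM in PBS, 22.6, 16.6 and 23.3 CPM in LPS_T and 30.9, 24.5 and 29.9 CPM in NOR_T. It was lowest in LPS_T, with LPS_T 2 well under the rest. It fell by a log2 change of -0.44 (SE 0.14, adjusted p = 0.0238) and was higher in NOR_T than in LPS_T by a log2 change of 0.45 (SE 0.14, adjusted p = 0.0302), but the first call is lost without PBS 2, PBS 3 or LPS_T 2 and the second without LPS_T 2, NOR_T 1 or NOR_T 3.

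The isoform X2-like gene (evm.TU.scaffold34531.82) had 114 ± 10.8 CPM in PBS, 125 ± 5.95 CPM in LPS_T and 115 ± 4.48 CPM in NOR_T (SD, n = 3), and its changes of 0.13 and 0.02 were not called. Subunit d-like (evm.TU.scaffold7053.1), which joins the sectors, had log2 changes of -0.04 and 0.01, and the 21 kDa proteolipid (evm.TU.scaffold55811.6) of -0.05 and 0.09, none of them called. The accessory subunit S1 (evm.TU.scaffold19783.1) was called in the mean of both exosome groups alone, at -0.22 (SE 0.07, adjusted p = 0.0388), and that call is lost without PBS 1, PBS 2, PBS 3, LPS_T 1, LPS_T 3 or NOR_T 1. By FPKM the pump genes spanned from 6.52 for the isoform X1-like subunit a to 383 for the 16 kDa proteolipid.

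**Figure D5:**
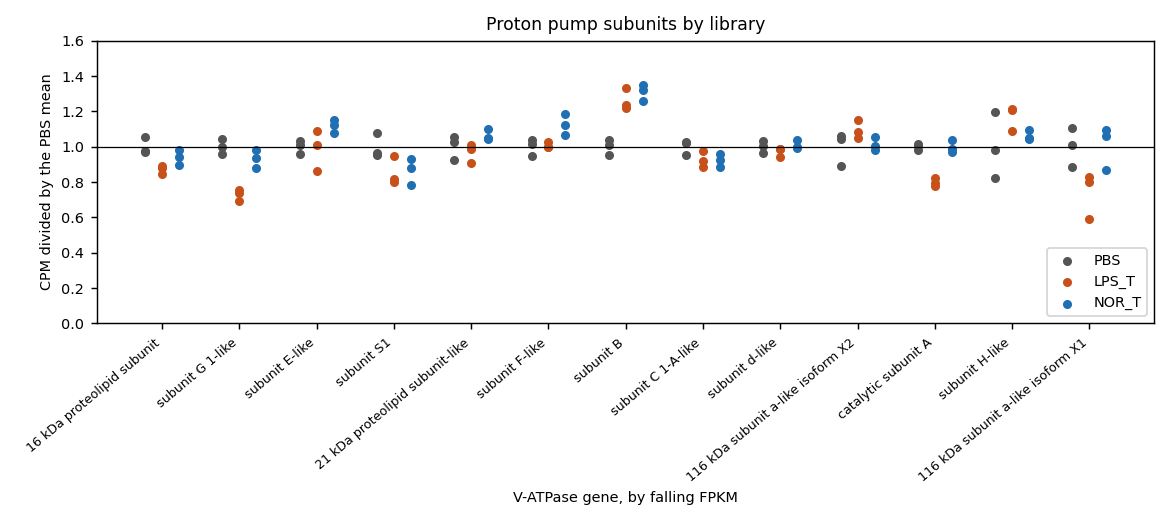
CPM of each of the 13 pump subunit genes divided by its own PBS mean (y axis, from 0), ordered from high to low FPKM; each point is 1 library, grey PBS, orange LPS_T, blue NOR_T, and the line marks the PBS mean. Subunit B lies above the line in all 6 exosome libraries, subunits A and G 1-like lie below it in LPS_T, and most other subunits scatter around it.

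Among the 19 tested membrane and other genes, 4 fell and 2 rose in LPS_T, and 3 fell and 0 rose in NOR_T, where 15.2% and 13.5% of all tested genes fell. The falls numbered 1 in LPS_T and 0 in NOR_T without TMM scaling, and 0 and 0 with limma, so none of those in NOR_T was called under either of these. The 0 that rose in NOR_T was also 0 at an unadjusted p under 0.05 and 0 and 0 with DESeq2 and limma. The lysosome-associated membrane glycoprotein 1-like gene (evm.TU.scaffold44835.46), a coat protein of the lysosomal membrane, had 171, 186 and 199 CPM in PBS, 155, 159.6 and 148 CPM in LPS_T and 169.5, 158 and 157 CPM in NOR_T. All exosome libraries lay below the PBS libraries. It fell by a log2 change of -0.27 (SE 0.07, adjusted p = 0.00493) in LPS_T and -0.20 (SE 0.07, adjusted p = 0.033) in NOR_T, the latter lost without PBS 2, PBS 3, NOR_T 2 or NOR_T 3. The transmembrane protein 4A-like gene, the most abundant of the class, had 439, 460.3 and 437 CPM in PBS, 380.1, 420.3 and 412 CPM in LPS_T and 368, 389 and 371 CPM in NOR_T. All exosome libraries were below PBS, and the exosome groups overlapped. It fell in NOR_T by a log2 change of -0.25 (SE 0.05, adjusted p = 0.00276) and missed the threshold in LPS_T, at -0.14 (adjusted p = 0.0522). Glycosylated lysosomal membrane protein B-like (evm.TU.scaffold15073.23) had 14.3, 11.2 and 11.5 CPM in PBS, 7.59, 8.48 and 7.01 CPM in LPS_T and 7.71, 9.66 and 8.63 CPM in NOR_T. PBS was highest without overlap, and the changes were -0.67 (SE 0.16, adjusted p = 0.00408) and -0.50 (SE 0.16, adjusted p = 0.0297), the second lost without PBS 1, NOR_T 1 or NOR_T 3.

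The lysosomal cobalamin transporter (evm.TU.scaffold63929.26), which exports vitamin B12, had 51.5, 42.3 and 42.9 CPM in PBS, 36.8, 37.1 and 33.9 CPM in LPS_T and 46.3, 49.4 and 47.5 CPM in NOR_T. LPS_T lay below both other groups, which overlapped. It fell in LPS_T by a log2 change of -0.34 (SE 0.09, adjusted p = 0.0113) and was higher in NOR_T than in LPS_T by a log2 change of 0.41 (SE 0.09, adjusted p = 0.00437). Lysosomal Pro-X carboxypeptidase-like (evm.TU.scaffold1553.3), which removes residues after proline, had 8.06, 11.1 and 10.9 CPM in PBS, 7.26, 7.13 and 7.35 CPM in LPS_T and 10.3, 12.7 and 10.6 CPM in NOR_T. LPS_T was again lowest and NOR_T overlapped PBS. It fell by a log2 change of -0.48 (SE 0.16, adjusted p = 0.0331) in LPS_T and exceeded LPS_T in NOR_T by a log2 change of 0.62 (SE 0.16, adjusted p = 0.0103); the first call is lost without PBS 2, PBS 3, LPS_T 1, LPS_T 2 or LPS_T 3 and the second without NOR_T 2.

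Of the 19 tested members of this class 2 rose in LPS_T and 0 in NOR_T, beside 17.9% and 11.4% of all tested genes. Lysosomal acid phosphatase-like isoform X1 (evm.TU.scaffold6301.3), which frees phosphate groups, had 1.36, 2.61 and 3.66 CPM in PBS, 4.55, 5.51 and 4.93 CPM in LPS_T and 2.81, 2.88 and 3.63 CPM in NOR_T. LPS_T lay above both other groups, with PBS 1 the lowest library. It rose in LPS_T by a log2 change of 0.93 (SE 0.30, adjusted p = 0.0268), a call lost without PBS 1, PBS 2, LPS_T 2 or LPS_T 3, and its neighbour evm.TU.scaffold6301.2 had a log2 change of 0.74 without passing (adjusted p = 0.235). Lysosomal-trafficking regulator-like (evm.TU.scaffold35599.10), whose human counterpart controls lysosome size, had 15.4, 16.3 and 19.0 CPM in PBS, 23.0, 23.6 and 25.7 CPM in LPS_T and 21.9, 14.6 and 17.8 CPM in NOR_T. Every LPS_T value lay above those of both other groups, which overlapped. It rose in LPS_T by a log2 change of 0.51 (SE 0.14, adjusted p = 0.0125), a call lost without LPS_T 3, and in NOR_T the change was 0.10 (adjusted p = 0.68). Of the 5 tested BLOC-1 subunits, 0 were called in LPS_T and 0 in NOR_T by edgeR, with log2 changes in LPS_T from -0.34 to 0.17. Over all tested genes 33% and 24.9% were called, so 0 of 5 says little about these subunits. At an unadjusted p under 0.05 edgeR placed 0 in LPS_T and 0 in NOR_T, and DESeq2 and limma called 0 and 0. The 13 members of the class not called in LPS_T ranged from -0.96 to 0.74.

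Some members lay side by side. The 95 genes lay on 75 scaffolds, and 24 of them lay on 9 scaffolds where 2 or more members had consecutive gene numbers; the share of all genes with a neighbour of like name was not computed. Neighbours often differed in level: of the adjacent pair on scaffold36833, cathepsin B averaged 178 FPKM and cathepsin B-like 2.42 FPKM, and of the pair on scaffold32013 the sulfatase evm.TU.scaffold32013.4 averaged 25.4 FPKM and evm.TU.scaffold32013.5 0.0370 FPKM. How reads shared between copies were counted is not stated, so such differences carry that uncertainty.

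Other genes of the lysosomal pathway, listed by name pattern and not by how they moved, are set beside the members here. Of 44 further hydrolases 38 were tested; 7 fell and 2 rose in LPS_T, and 8 fell and 2 rose in NOR_T, where 15.2% and 13.5% of all tested genes fell and 17.9% and 11.4% rose. The falls numbered 4 in LPS_T and 2 in NOR_T without TMM scaling, and 3 and 0 with limma, and those that rose 2, 2, 3 and 2 in the same order. Some matched names are not lysosomal enzymes, such as tripeptidyl-peptidase 2. Sphingomyelin phosphodiesterase-like (evm.TU.scaffold7777.6), which splits sphingomyelin, fell by a log2 change of -0.86 in LPS_T and -0.67 in NOR_T, from 57.7 ± 9.64 CPM in PBS (adjusted p = 5.06e-05 and 0.000733). Acid ceramidase-like (evm.TU.scaffold11599.2), the next enzyme of that route, fell by a log2 change of -0.93 in LPS_T and -0.95 in NOR_T (adjusted p = 0.000919 and 0.00123). Palmitoyl-protein thioesterase 1-like (evm.TU.scaffold61991.16), which strips fatty acids from proteins, fell by a log2 change of -0.69 in LPS_T and -0.42 in NOR_T (adjusted p = 5.65e-05 and 0.00495). Those that rose were different genes in each group. In LPS_T they were iduronate 2-sulfatase-like (evm.TU.scaffold52589.4), which takes sulfate off heparan and dermatan sulfate, at 0.72 (SE 0.23, adjusted p = 0.0243), and palmitoyl-protein thioesterase 1 (evm.TU.scaffold62107.2), at 1.38 (SE 0.51, adjusted p = 0.0494) from 0.806, 0.624 and 0.618 CPM in PBS to 1.26, 1.88 and 2.12 CPM. In NOR_T they were prostatic acid phosphatase-like (evm.TU.scaffold1989.132), at 0.60 (SE 0.11, adjusted p = 0.000628), and beta-galactosidase-like isoform X1 (evm.TU.scaffold58949.2), which removes galactose, at 1.08. The mean FPKM of the latter was 0.856 in PBS, 0.740 in LPS_T and 2.00 in NOR_T. It thus passed the filter mainly through NOR_T, and its rise, although counted above, is given as a description only. The rise of evm.TU.scaffold62107.2 in LPS_T rests on few counts, since 3 fragments already make up 0.694 CPM in PBS 1.

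Genes that carry enzymes to the lysosome were called only as higher against PBS. Of 17 tested sorting genes 6 rose and 0 fell in LPS_T, and 4 rose and 0 fell in NOR_T, against 17.9% and 11.4% of all tested genes that rose. Neither at an unadjusted p under 0.05 nor with DESeq2 or limma was any lower (0 and 0), while those higher numbered 3 in LPS_T and 3 in NOR_T without TMM scaling, and 2 and 1 with limma. Over all 11678 tested genes those higher numbered 2064 and 1085 without TMM scaling, and 1883 and 778 with limma. In LPS_T the share of sorting genes that rose was thus not above that of all genes in either setting. The genes called include subunits of the adaptor complexes AP-1 and AP-3, which pack cargo into transport vesicles: AP-1 mu-1-like (evm.TU.scaffold64279.159) rose by a log2 change of 0.22 (SE 0.07, adjusted p = 0.0249) in LPS_T and 0.32 (SE 0.07, adjusted p = 0.0034) in NOR_T, and AP-3 mu-1-like (evm.TU.scaffold60269.3) by a log2 change of 0.41 (SE 0.09, adjusted p = 0.00323) and 0.51 (SE 0.09, adjusted p = 0.000992). The cation-dependent mannose-6-phosphate receptor-like gene (evm.TU.scaffold20445.24), a sorting receptor for these enzymes in mammals, rose in LPS_T by a log2 change of 0.43 (SE 0.13, adjusted p = 0.0175) and had a log2 change of 0.13 in NOR_T (adjusted p = 0.513).

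Of 23 tested genes for lysosomal membrane proteins and regulators, 5 rose and 7 fell in LPS_T, and 3 rose and 3 fell in NOR_T, where 17.9% and 11.4% of all tested genes rose and 15.2% and 13.5% fell. The falls numbered 3 in LPS_T and 1 in NOR_T without TMM scaling, and 1 and 1 with limma, and those that rose 5, 3, 4 and 3 in the same order. Sialin-like (evm.TU.scaffold41509.73), named for a sialic acid exporter, had 185, 186 and 189.7 CPM in PBS, 60.8, 62.9 and 63.7 CPM in LPS_T and 81.3, 86.8 and 84.1 CPM in NOR_T. Both exosome groups lay far below PBS and apart from each other, with changes of -1.58 (SE 0.06, adjusted p = 1.83e-11) and -1.15 (SE 0.06, adjusted p = 2.61e-09). CD63 antigen-like (evm.TU.scaffold40683.16), a tetraspanin of late endosomes and exosomes, fell by a log2 change of -0.44 (SE 0.06, adjusted p = 2.1e-05) and -0.24 (SE 0.06, adjusted p = 0.00541), and Rab-7a (evm.TU.scaffold63699.53), the small GTPase of late endosomes, by a log2 change of -0.56 (SE 0.05, adjusted p = 1.74e-07) and -0.34 (SE 0.05, adjusted p = 7.09e-05). In contrast, VPS18 (evm.TU.scaffold56703.3), a core subunit of the tethering complexes that join vesicles to lysosomes, rose by a log2 change of 0.58 (SE 0.11, adjusted p = 0.00066) and 0.52 (SE 0.11, adjusted p = 0.00236). VPS16 (evm.TU.scaffold32463.20), another core subunit, rose by a log2 change of 0.46 (SE 0.08, adjusted p = 0.000305) and 0.41 (SE 0.08, adjusted p = 0.00135).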

How the data were processed

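Hemocyte RNA of 9 scallop libraries in 3 title groups was compared. Per the submitters' processing notes, the authors used HISAT, StringTie and edgeR; tool versions, build and settings for counting were not given in the sources used here. Per the labels' protocols the kit does not mark strand. Per the file headers, the deposited table pairs a count with an FPKM value for each of 21617 genes and each library. The counts are the authors' estimated counts, already whole in the table. FPKM values were deposited by the authors as fragments per gene length and library total, with no further scaling stated.

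Here, genes with an FPKM of 1 or more in 3 or more libraries (11678) were tested with edgeR 4.0.16 (TMM scaling, 1 mean per group, quasi-likelihood test, Benjamini-Hochberg adjustment) in R 4.3.3, with all 9 libraries in 1 fit. The standard error is the log2 change divided by the square root of F. The alternatives used limma 3.58.1 on log2(FPKM + 1) and log2(FPKM + 0.1), DESeq2 1.42.0, its size factors, no scaling, other filters, division by counts per fragment, a replicate block, each library left out, and 2 alternatives added after seeing PBS 1. Each fold change is on the scale of its tool. The edgeR step was tested on simulated data.

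The members and lists were chosen with earlier results of these data known. Genes named are, per role class, the 2 with the highest FPKM, the 3 called members with the smallest adjusted p in each direction, every called member with a log2 change of at least 1, every pump subunit, and neighbours on 1 scaffold. Other members named fall outside this rule and are to be read as chosen after their values were seen. Among these are evm.TU.scaffold51277.52, evm.TU.scaffold64345.6 and evm.TU.scaffold51783.7. Replicate numbers come from the titles. Deviations of libraries with the same number correlated between -0.0248 and 0.0797. No shared effect of the number was thus seen in expression, and the libraries were not treated as pairs. Whether they were collected or processed together is not known from this. Totals per library ranged from 19894628 to 45831950 estimated counts; estimated counts run at 3.69 to 3.78 per fragment, so counting error is larger than they imply.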

Additional observations from a re-analysis of the deposited data

Results flagged for a closer look

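For 12 members the difference between the exosome groups was itself called by edgeR (adjusted p under 0.05). They were 17.9% of the tested members, a smaller share than the 21.5% of all tested genes. The values below are log2 changes from LPS_T to NOR_T unless stated, and no explanation of them was tested. The larger ones were arylsulfatase B-like evm.TU.scaffold32013.4 at 1.34, cathepsin L1-like at 1.19, arylsulfatase B-like evm.TU.scaffold726047.1 at 1.09, alpha-L-fucosidase-like evm.TU.scaffold15477.37 at 0.88 and lysosomal Pro-X carboxypeptidase-like at 0.62. Epididymal secretory protein E1, with no counts in LPS_T, was at least 7.28-fold higher in NOR_T. It passed the filter through PBS and NOR_T alone, so its call is counted but not taken as support. Cathepsin L1-like lay near the filter's limit and may have passed it in the same way. Smaller differences were seen in subunit a isoform X1-like of the pump (0.45), the lysosomal cobalamin transporter (0.41), cathepsin D (0.37), subunit G 1-like (0.35) and catalytic subunit A (0.32). Legumain-like alone among them was lower in NOR_T, at -0.47. All 12 rest on 3 libraries a group; 4 of the 12 calls held under every setting tried, and none of the 3 pump calls held without TMM scaling (0 of 13 subunits called).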

How the results depend on the processing

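Over the 4 comparisons, 25 of 78 calls of named members held under every setting tried; 39 were lost without scaling beyond library size and 48 with limma on FPKM at either pseudocount, but 4 with the 2 dominant genes left out of the library sizes and 7 with limma when PBS 1 was left out, both added after seeing the data. The 78 include the calls of evm.TU.scaffold27081.3 against PBS, which the filter built in, and those of Epididymal secretory protein E1 against LPS_T, where it had no counts. Without scaling, 10 members were lower in both exosome groups, 12 in LPS_T and 3 in NOR_T, and from LPS_T to NOR_T 6 were higher and 0 lower. With limma on log2(FPKM + 1) these were 7, 8, 3, 4 and 0, and 1 was higher in NOR_T against PBS; on log2(FPKM + 0.1) they were 7, 8, 3, 5 and 0, and 0 was higher in NOR_T. The changes of catalytic subunit A (0.00503 and 0.00556) and the 16 kDa proteolipid (0.0243 and 0.0244) in both exosome groups were reversed in sign by limma at pseudocounts 1 and 0.1. The count of members lower in NOR_T than in LPS_T was 2 with DESeq2, 3 with no filter, 2 with counts per fragment and 2 with limma without PBS 1. Leaving out each library in turn gave 2 to 5 members higher for both exosome groups, 2 to 6 higher in LPS_T, and 0 to 3 lower from LPS_T to NOR_T. The replicate number was also used as a block, although no shared effect of the number was seen. The members called were then 2 higher and 20 lower for both exosome groups, 4 and 24 for LPS_T, and 2 and 13 for NOR_T. From LPS_T to NOR_T they were 11 and 1, and 3 calls of named members were lost. Depth limits the weak members: 28 of 95 could not be tested, and the untested ones never passed an FPKM of 1.82.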
